A study of Arabidopsis thaliana with 21 samples.

Results

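The comparison described here is 1 h of continuous red light against 1 h more of darkness in etiolated wild-type Arabidopsis thaliana seedlings of ecotype Col-0. It rests on 6 of the 21 arrays of the series, the 3 arrays of the group WT_R1 and the 3 arrays of the group WT_D1, and on all 22746 probe sets of the 22810 that are not controls. All seedlings germinated after 4 days of cold at 4 °C and 3 h of white light and then grew for 4 days in darkness at 21 °C without sucrose. WT_D1 seedlings were left in the dark for 1 h more, and WT_R1 seedlings were moved to a red light chamber for 1 h. The dark control was therefore of the same age as the lit seedlings, but the labels do not say whether it was moved between chambers too. For context 12 other arrays, 3 per group, were used: wild type at the end of the 4 dark days (WT_D0), wild type after 18 h more of darkness (WT_D18), wild type after 18 h of red light (WT_R18) and the pif3 mutant after 1 h more of darkness (pif3_D1, allele not given in the labels). The labels call the 3 arrays of a group biological replicates of whole seedlings and do not say how many seedlings were pooled. In whole seedlings, fewer cells of a type and less RNA per cell cannot be told apart.

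Red light is sensed in plants by the phytochromes, which on absorbing it change form and move into the nucleus. There they bind the phytochrome-interacting factors (PIFs), basic helix-loop-helix (bHLH) proteins that keep a dark-grown seedling elongating with closed, pale cotyledons, and the PIFs are degraded. Factors such as HY5 and its homolog HYH, which the COP1 ubiquitin ligase removes in darkness, then build up and promote greening, pigment synthesis and shorter growth.

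Values are intensities after quantile normalization, and a log2 change is a difference between group means of log2(intensity + 16), with its standard error (SE) from the fit over all arrays. It understates the change of dim probe sets. A probe set or gene was called where limma's Benjamini-Hochberg adjusted p was under 0.05. A gene is represented by its brightest probe set with a single annotated gene.

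The WT_R1 and WT_D1 arrays differed in the signal of a control. The 25S ribosomal RNA control, scaled to each array's median, read 127.1 to 460.1 on the WT_R1 arrays and 683.2 to 5372 on the WT_D1 arrays, with no overlap. At 18 h it read 2700 to 3662 on the WT_R18 arrays and 378.4 to 4460 on the WT_D18 arrays, and it read 628.7 to 5280 on the WT_D0 arrays. The 3′ to 5′ signal ratio of the GAPDH control overlapped, at 1.353 to 1.599 in WT_R1 and 1.461 to 1.613 in WT_D1. WT_R1 replicate 2 stood apart from its group. On it 182 of 13350 named genes lay more than 1 log2 unit above the mean of the other WT_R1 arrays, against 66 and 18 genes for replicates 1 and 3 and 19 to 21 genes for the WT_D1 arrays. Among these were CCOAMT, at 1028 on that array and at 39.02 and 66.13 on the others, and the osmotin OSM34, at 3241 against 553.0 and 709.6. Without that array 890 probe sets were called in place of 1126. With the 25S signal as a covariate 597 were called, of which 550 were among the 1126. The part of these differences in the results was not tested.

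After 1 h of red light 634 probe sets were higher (2.79%) and 492 were lower (2.16%), together 1126 of 22746 (4.95%). The increases were the larger changes: 231 called probe sets were at least 2-fold higher on the offset scale (1.02%) and 74 were at least 2-fold lower (0.325%). Among the 13350 genes that could be named, 527 were called (3.95%): 267 were higher (2%) and 260 were lower (1.95%), with median log2 changes of 0.76 and -0.56, beside a median of -0.02 over all named genes. In 524 genes, 3.93% of those named, the change was called and the values of the WT_R1 and WT_D1 arrays did not overlap. For comparison, 997 of all named genes had every WT_R1 array above every WT_D1 array (7.47%) and 1490 had every WT_R1 array below (11.2%). Without any scaling of the arrays the count was 165, and the share of increases among the calls was 80.0% (132 probe sets) in place of 56.3%. It was 51.6% with each array scaled to the same median and 50.2% with the mean of WT_D0 and WT_D1 as the dark control (825 of 1644 calls).

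**Figure D1:**
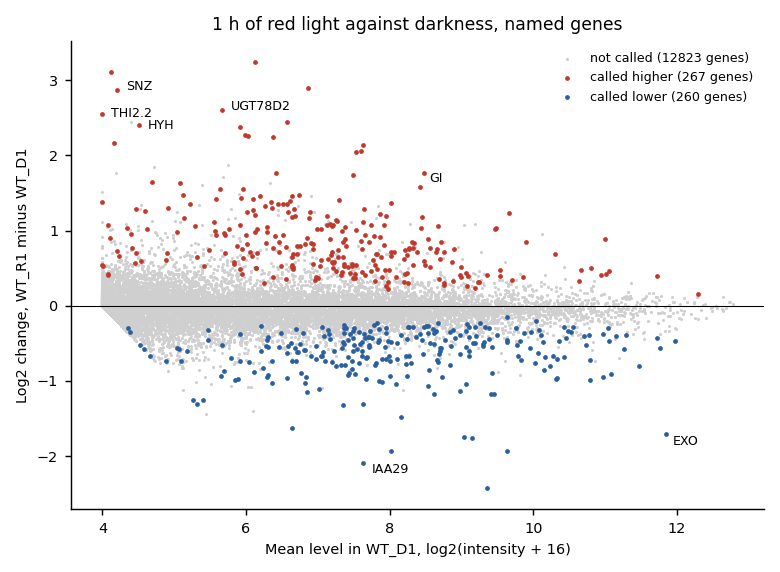
Log2 change after 1 h of red light (WT_R1 minus WT_D1, vertical axis) against the mean level in WT_D1 (horizontal axis, log2(intensity + 16)) for 13350 named genes, 1 point per gene. The 267 genes called higher reach further from 0 than the 260 called lower, and several of the largest increases, such as SNZ, THI2.2 and HYH, start near the offset's floor.

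Among regulators of the light response HYH, the bZIP factor that acts with HY5, rose from near background. It read 9.431, 9.957 and 1.674 in the WT_D1 arrays and 118.0, 86.09 and 109.1 in the WT_R1 arrays. All lit arrays were above all dark ones, and the log2 change was 2.40 ± 0.18 (SE, n = 3 per group, adjusted p = 3.9e-07). Since the dark mean lay under the offset, the size rests on it and ran from 1.24 to 3.397 over the alternative settings. AFR, an F-box protein named for the attenuated far-red response of plants that lack it, read 57.83, 59.0 and 88.71 in darkness and 381.3, 380.4 and 380.1 in red light. The lit arrays were nearly equal, and the log2 change was 2.25 ± 0.21 (adjusted p = 3.2e-06). FHL, a partner of FHY1 in carrying phytochrome A into the nucleus, fell by 0.84 ± 0.13 (adjusted p = 0.00054), from 160.2, 149.3 and 177.0 to 89.28, 75.73 and 85.36. Few genes of these pathways could be named: 2 of 39 entries in the list of photoreceptors and their partners were measured, with 1 called lower, and 2 of 64 in the list of light-signalling transcription factors, with 1 called higher. No photoreceptor itself was among them. The other partner measured, CUL4, a scaffold of ubiquitin ligases, changed by -0.07 log2 (adjusted p = 0.84). The other transcription factor measured was STZ, at 1.24 log2 and not called (adjusted p = 0.17). STZ is also in the list of touch, wound and heat responses, below.

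GI, a clock protein that also links light to flowering, was the member of the clock list that changed. Its intensity was 316.8, 326.1 and 340.1 in darkness and 949.9, 967.6 and 1119 after red light, so the groups lay far apart with a log2 change of 1.58 ± 0.10 (adjusted p = 8.7e-08). The other measured clock genes, COR27, FIO1 and XCT, had log2 changes between -0.05 and -0.03 and were not called. SMZ and SNZ, related AP2-type repressors of flowering, were both among the 20 largest increases. SMZ read 182.6, 198.5 and 157.9 in darkness and 748.4, 793.2 and 840.4 in light, a log2 change of 2.05 ± 0.15 (adjusted p = 2.2e-07). SNZ was near 0 in darkness, at -15.85, 8.733 and -10.45, and read 123.9, 136.5 and 99.77 in light. Its log2 change of 2.87 ± 0.29 (adjusted p = 9.4e-06) rests on the offset and ran from 1.46 to 4.39 over the settings.

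Counts in other named factor families were small, and each stands beside 3.95% of all named genes called. Of 5 bHLH genes named by number bHLH34 rose by 1.05 ± 0.09 log2 (adjusted p = 8.7e-07) and none fell. Of 14 bZIP genes named by number 2 fell, bZIP52 by 0.67 ± 0.12 (adjusted p = 0.0018) and BZIP61, named after its values were seen, by 0.49 ± 0.12 (adjusted p = 0.027). WRKY22 fell by 0.90 ± 0.12 (adjusted p = 0.0001), from 151.5 to 182.7 in darkness to 76.07 to 84.53 in light, and was the only one of 6 named WRKY genes called. None of 40 AGAMOUS-like genes was called, but in 27 of them both group means lay under the offset, where a change is hard to see. The calls of bZIP52 and BZIP61 were lost with the 25S covariate (adjusted p = 0.10 and 0.27), and that of BZIP61 also without WT_R1 replicate 1 or WT_D1 replicate 1 or 2 (up to 0.12). Further factors were picked out after their values were seen. The AP2 factor TINY (tny), which restrains cell expansion when overproduced, rose by 1.25 ± 0.25 (adjusted p = 0.0054, and 0.084 with the 25S covariate). The growth regulator TCP15 fell by 0.64 ± 0.10 (adjusted p = 0.0011). SPT, a bHLH factor of seed germination and organ growth, fell by 0.27 ± 0.07 (adjusted p = 0.035), with a call that was lost in the 5 fits that left out an array other than WT_R1 replicate 1 (adjusted p up to 0.13) and with the 25S covariate (0.12).

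Several genes of the shade response and the auxin pathway were lower in red light. In darkness PIFs maintain many of the genes that leaf shade turns on, and auxin drives hypocotyl cells to elongate. Of 5 measured genes in the list of shade and PIF targets 4 fell, with a list median of -0.84, and BIM1, a brassinosteroid-signalling bHLH factor, was not called (-0.02). Their share stands beside 1.95% of named genes called lower. IAA29, an auxin-response repressor that PIFs bind, had the second largest decrease. It fell from 162.0, 184.5 and 199.5 to 28.23, 31.12 and 32.16, a log2 change of -2.09 ± 0.13 (adjusted p = 4.6e-08). HAT2, an auxin-inducible homeodomain factor, read 844.2, 876.5 and 895.3 in darkness and 521.1, 506.6 and 596.2 in light, and fell by 0.68 ± 0.10 (adjusted p = 0.00026). The remaining members that fell were FHL, above, and EXO.

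In the auxin-response list 4 of 13 measured genes fell, beside 1.95% of named genes, and none rose, and the list median was -0.03. Besides IAA29 and HAT2 they were IAA20, a repressor protein that lacks the degradation motif of most Aux/IAA proteins, and GH3.3, an enzyme that joins auxin to amino acids. IAA20 went from 296.3, 301.0 and 267.4 to 168.7, 115.7 and 149.8, and fell by 0.93 ± 0.19 (adjusted p = 0.0059). GH3.3 went from 228.7, 229.5 and 190.4 to 93.0, 118.2 and 89.53, and fell by 1.00 ± 0.25 (adjusted p = 0.024). Both genes had no overlap between groups. The GH3.3 call was lost in 4 of the 6 fits that left out an array (without WT_R1 replicate 1 or 3 or WT_D1 replicate 1 or 2, adjusted p up to 0.089) and with the 25S covariate (adjusted p = 0.29). The other IAA genes measured, IAA18, IAA30, IAA31, IAA33 and IAA34, had log2 changes between -0.03 and 0.09. WAG2, a protein kinase that acts on auxin efflux carriers, was the gene called among 6 of auxin synthesis and transport. It fell by 1.04 ± 0.24 (adjusted p = 0.015), from 495.0, 537.6 and 517.4 to 292.3, 224.2 and 217.1. Its call was lost without WT_R1 replicate 2 or 3 or WT_D1 replicate 2 (highest adjusted p = 0.064) and with the 25S covariate (adjusted p = 0.059). The auxin-synthesis genes YUC2, YUC4 and YUC6 were not called.

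EXO, a cell-wall protein that brassinosteroids induce and that supports cell expansion, was the brightest of the 20 largest decreases. It read 3301, 3979 and 3715 in darkness and 1103, 1208 and 1009 in red light. The groups were far apart, and the log2 change was -1.71 ± 0.13 (adjusted p = 4.6e-07). It was the gene called among 3 of the brassinosteroid list. Picked out after their values were seen, BRH1, a RING-finger gene that brassinosteroids repress, fell by 0.73 ± 0.16 (adjusted p = 0.012) and ARL, which promotes organ growth through cell expansion, fell by 0.71 ± 0.15 (adjusted p = 0.010). The BRH1 call was lost without WT_R1 replicate 3 or WT_D1 replicate 3 (adjusted p up to 0.069), and the ARL call without WT_D1 replicate 3 (0.056) and with the 25S covariate (0.084). None of the 4 gibberellin genes was called, with the receptors GID1A, GID1B and GID1C at -0.25, 0.50 and -0.23 log2. None of 3 genes of the ethylene, cytokinin, abscisic acid and jasmonate list was called.

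Cell-wall loosening genes changed in both directions. Of 21 genes in the list of expansins and xyloglucan hydrolases 1 rose and 2 fell, with a median of -0.06. These counts and those of the expansin family, below, stand beside 267 of 13350 named genes called higher and 260 called lower. The median over all named genes was -0.02. EXPB1, an expansin, fell by 0.79 ± 0.15 (adjusted p = 0.0049), from 178.2, 228.4 and 214.5 to 106.5, 117.1 and 114.7. XTH16, which cuts and rejoins xyloglucan, fell by 0.55 ± 0.09 (adjusted p = 0.0012), from 578.8, 751.4 and 687.6 to 470.1, 439.5 and 444.6. XTH32, of the same enzyme family, rose by 1.36 ± 0.22 (adjusted p = 0.00097), from 65.93, 69.34 and 92.8 to 307.9, 211.3 and 157.3. In the whole expansin family 2 of 18 measured genes fell, EXPB1 and EXPA9, and none rose. EXPA9 read 1112, 1211 and 1042 in darkness and 751.4, 518.8 and 593.9 in light, a log2 change of -0.85 ± 0.14 (adjusted p = 0.00088). CSLC04, which makes the xyloglucan backbone, fell by 0.43 ± 0.09 (adjusted p = 0.010), with a call lost without WT_R1 replicate 2 or 3 or WT_D1 replicate 3 (adjusted p up to 0.055) and with the 25S covariate (0.067). None of 7 tubulin genes was called. IQD26, an IQ-domain protein of the calmodulin-binding kind, was among the 20 largest decreases at -1.15 ± 0.20 (adjusted p = 0.0014, and 0.055 with the 25S covariate), from 96.03 to 100.9 in darkness to 26.18 to 49.39 in light. Picked out after their values were seen, its relative IQD28 fell by 0.38 ± 0.07 (adjusted p = 0.0033, and 0.059 with the 25S covariate) and TRM15, of a protein family tied to microtubule arrays, fell by 0.37 ± 0.05 (adjusted p = 0.00029).

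**Figure D2:**
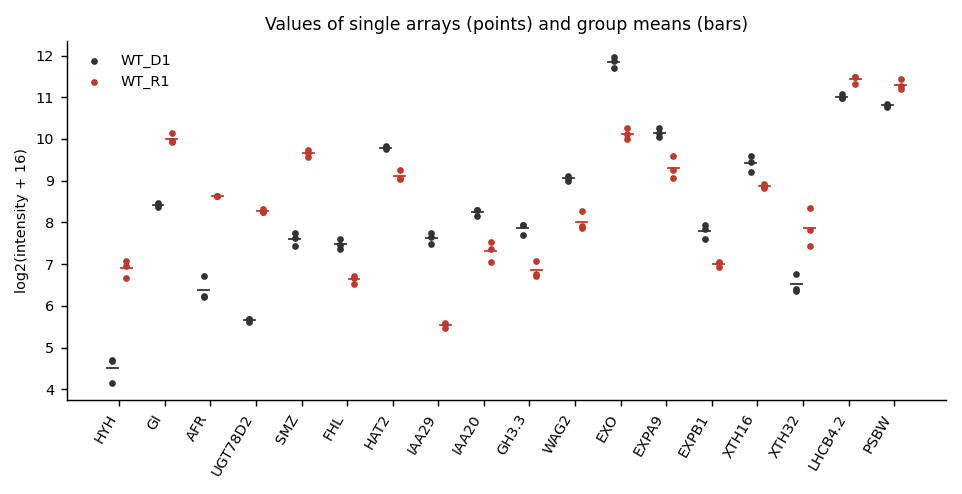
Values of single arrays (points) and their group means (short bars) for 18 genes of light signalling, flowering, auxin, cell wall and photosynthesis, as log2(intensity + 16). In each of the 18 genes the 3 WT_R1 points and the 3 WT_D1 points do not overlap. The genes were chosen from those called, of which 524 of 527 had no overlap, so this separation adds no support.

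Flavonols and anthocyanins are the shielding pigments of lit seedlings, and their sugar groups are added by UDP-dependent glycosyltransferases (UGTs). UGT78D2, which puts glucose on flavonols and anthocyanidins, rose from 32.85, 35.65 and 35.63 to 303.7, 288.3 and 286.9. Both groups were tight, and the log2 change was 2.61 ± 0.14 (adjusted p = 8.8e-09). It was the gene called among 6 of the flavonoid and phenylpropanoid list. Its relatives UGT78D1 and UGT78D3 were not called, at 0.51 and 0.00 log2, nor was DFR, the dihydroflavonol reductase, at 0.09. The list was dim: its 6 genes summed to 80.87 to 102.3 in WT_D1. In 2 of the 6 both group means lay under the offset, where a change is hard to see. CCOAMT had a log2 change of 1.71 (adjusted p = 0.51), and was high on WT_R1 replicate 2, the array that stood apart, and not on the others.

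Over the whole UGT family 4 of 47 genes rose and 1 fell, with a median of 0.10. UGT85A2 was the one that fell, by 0.89 ± 0.14 (adjusted p = 0.00054), from 642.0 to 697.9 in darkness to 306.9 to 412.7 in light. The others, named after their values were seen, were UGT76E2, UGT72B3 and UGT74D1, which rose by 0.77, 0.65 and 0.59 log2 (adjusted p = 0.010, 0.037 and 0.0023), and the UGT76E2 call was lost without WT_R1 replicate 2 or 3 (adjusted p up to 0.055) and the UGT72B3 call without any of the 6 arrays (up to 0.16). All 3 calls were lost with the 25S covariate (adjusted p = 0.083, 0.14 and 0.17), with log2 changes of 0.86, 0.76 and 0.40. Of 14 glutathione transferases, which join glutathione to reactive compounds, 2 rose and 13 had a log2 change above 0, with a median of 0.12. These counts stand beside 267 of 13350 named genes called higher and a median of -0.02 over all named genes. In 4 of the 14 both group means lay under the offset, and a shift of the whole family was not tested. GSTU16 rose by 0.85 ± 0.11 (adjusted p = 0.00011), from 212.4, 191.7 and 176.3 to 340.3, 334.9 and 415.6, and GSTU18, named after its values were seen, by 0.53 ± 0.12 (adjusted p = 0.011). The GSTU18 call was lost with the 25S covariate (log2 change 0.62, adjusted p = 0.066) and without WT_R1 replicate 3 or WT_D1 replicate 1 (up to 0.057). None of 22 cytochrome P450 genes was called, and in 8 of them both group means lay under the offset.

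Further single genes were picked out after their values were seen, from no list and with no count of the genes of their kind. MSRB6, which repairs oxidised methionine, rose by 1.56 ± 0.13 (adjusted p = 1.3e-06), from 27.69, 33.65 and 40.03 to 130.1, 140.1 and 119.8. AOR, a chloroplast reductase of reactive carbonyls, rose by 1.201 ± 0.16 (adjusted p = 0.00014), from 213.8, 229.6 and 247.9 to 618.4, 465.1 and 576.7. AER, an alkenal reductase, rose by 0.74 ± 0.15 (adjusted p = 0.0062). These 3 genes kept their calls in the 6 fits that left out an array.

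The measured genes of the photosynthetic apparatus, which fills the greening chloroplast, had moved only a little after 1 h. Few could be named: 3 of 21 entries in the antenna list and 6 of 39 in the photosystem and electron transport list were measured. Of the antenna genes, LHCB4.2 rose by 0.42 ± 0.08 log2 (adjusted p = 0.003), from 2012, 2003 and 2152 to 2867, 2558 and 2841, and LHCB4.3 by 0.53 ± 0.13 (adjusted p = 0.022), from 175.8, 152.3 and 160.6 to 255.7, 246.5 and 223.4. LHCB4.1, the third of these proteins of the minor photosystem II antenna, was not called (0.05). The counts of the antenna list and of the next list stand beside 267 of 13350 named genes called higher. The median over all named genes was -0.02. Of 6 photosystem and electron transport genes 2 rose, with a list median of 0.24. They were PSBY, at 1204, 1222 and 1329 in darkness and 2416, 1781 and 1913 in light (0.68 ± 0.17, adjusted p = 0.024), and PSBW, at 1738, 1764 and 1825 in darkness and 2740, 2350 and 2469 in light (0.50 ± 0.12, adjusted p = 0.018), both small subunits of photosystem II. With the 25S covariate none of these 4 genes was called (adjusted p = 0.10, 0.19, 0.35 and 0.13, in the order given), while their log2 changes were 0.38, 0.53, 0.52 and 0.54. LHCB4.3 also lost its call without WT_R1 replicate 1 or 2 or WT_D1 replicate 2 or 3 (adjusted p up to 0.091). PSBY and PSBW lost theirs without WT_R1 replicate 1 or WT_D1 replicate 1 or 2 (up to 0.11 and 0.079).

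None of 9 genes of tetrapyrrole and chlorophyll synthesis was called, with a median of 0.00 and a range from -0.34 for PORB, the light-dependent protochlorophyllide reductase, to 0.25 for HEMA2. No gene of the Calvin cycle and photorespiration list was called either, though all 5 had a log2 change above 0 and the median was 0.25. The nearest to the threshold was the photorespiratory reductase HPR, at 0.36 ± 0.12 (adjusted p = 0.12). None of 4 photoprotection genes and neither of 2 carotenoid genes was called. The tetrapyrrole, Calvin cycle, photoprotection and carotenoid lists held 40, 36, 28 and 34 entries, so most of their entries were not measured. The 69 measured genes of the plastid genome included none that was called, 3 at an unadjusted p under 0.05, and had a median of -0.15 with 20 above 0. The fit by limma was the only one made across all genes.

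More single genes were picked out after their values were seen and do not stand for their kinds. Hop3, a co-chaperone that links HSP70 to HSP90, rose by 1.00 ± 0.14 (adjusted p = 0.00035), from 26.29, 31.64 and 36.3 to 53.93, 104.0 and 83.64. Fes1A, an HSP70 partner, rose by 0.69 ± 0.14 (adjusted p = 0.0077, and 0.063 with the 25S covariate), and SGT1A, an HSP90 co-chaperone, by 0.60 ± 0.13 (adjusted p = 0.011). On WT_R1 replicate 2 SGT1A read 245.3, against 159.0 and 157.7 on the others. GTR1, a glucosinolate transporter, rose by 1.29 ± 0.18 (adjusted p = 0.00019), and OCT5, of the organic cation transporters, by 1.07 ± 0.10 (adjusted p = 3.9e-06). TMT1, a sugar transporter of the vacuole membrane, fell by 0.32 ± 0.08 (adjusted p = 0.028), with a call lost without WT_R1 replicate 1 or 3 or WT_D1 replicate 2 or 3 (up to 0.14), and none of 14 genes of the sugar transporter families was called. PDC2, a pyruvate decarboxylase, rose by 1.02 ± 0.09 (adjusted p = 2.2e-06), and CYTC-2, a cytochrome c of the mitochondrial electron transport chain, by 1.09 ± 0.14 (adjusted p = 0.00015).

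Lists that mark handling and other tissues were measured beside these results. In the list of touch, wound and heat responses none of 6 genes was called, but 5 lay above 0 with a median of 0.39, and their summed intensity was 65.22 to 148.4 in WT_D1 and 161.3 to 574.9 in WT_R1. STZ, a stress-induced zinc-finger factor, read 86.13, 308.0 and 111.2 in WT_R1 against 45.71, 60.88 and 50.97 in WT_D1 (1.24 ± 0.45, adjusted p = 0.17). Of 7 markers of etiolated seedlings 2 fell, FHL and IAA29, beside 1.95% of named genes called lower. Both are also counted in the list of shade and PIF targets, so this is not a separate observation. The seed-reserve genes ICL, PAP85 and OLEO3 and the late-embryogenesis genes M10 and M17 were not called. The 7 markers summed to 9040 to 9535 in WT_D1 and 7624 to 9308 in WT_R1. FHL and IAA29 averaged 162.2 and 182.0 in WT_D1 and 83.46 and 30.5 in WT_R1, so most of the sum came from the seed-reserve and late-embryogenesis genes. Neither of 2 root markers nor any of 4 shoot epidermis, guard cell and vascular markers was called. The root markers summed to 63.42 to 106.6 in WT_D1 and 37.5 to 102.9 in WT_R1, and the shoot markers to 65.51 to 107.5 and 113.4 to 158.2, with MUTE below 0 in both group means. The part of these lists in the other results was not tested.

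**Figure D3:**
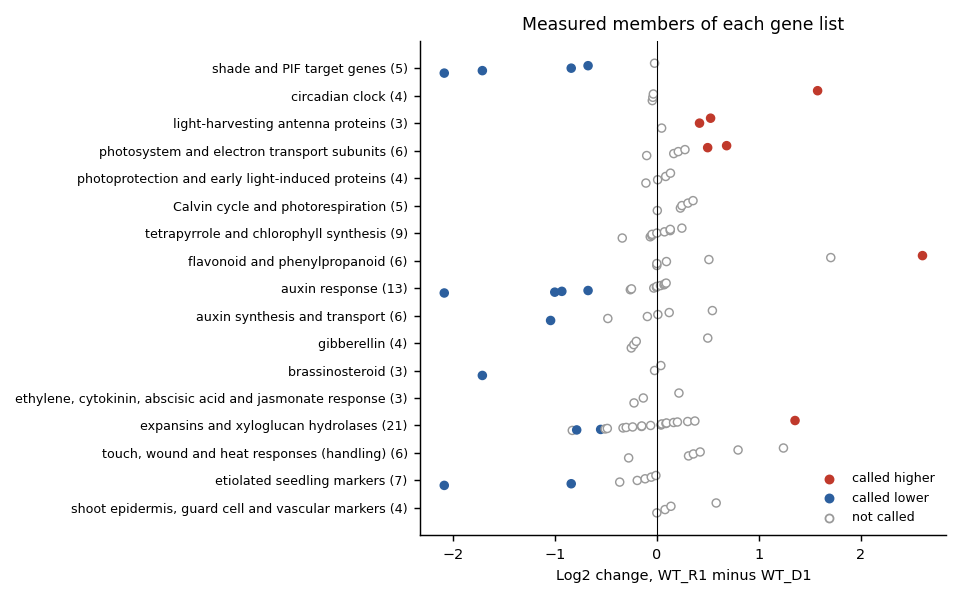
Log2 change after 1 h of red light (horizontal axis) for every measured member of the 17 lists with 3 or more measured genes, 1 point per gene, with the number measured in brackets. Filled points passed the test and open points did not, and most points called lower lie in the shade, auxin and etiolated lists, which share IAA29, FHL and HAT2 among them.

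Most of the 40 genes with the largest changes have a locus identifier in place of a gene symbol, and no function is given for them here, except where RefSeq lists another name. The 20 largest increases ran from 1.64 to 3.24 log2 (adjusted p between 3.3e-09 and 0.00056). The leader was AT1G64500, which read 45.69, 55.81 and 59.85 in darkness and 640.9, 629.1 and 657.7 in light (3.24 ± 0.19, adjusted p = 2e-08). AT3G02910 had the lowest adjusted p, rising from 114.8, 87.81 and 98.84 to 898.5, 800.9 and 857.1 (2.90 ± 0.14, adjusted p = 3.3e-09). In both genes each lit array read several times the brightest dark one. AT5G58750 was at background in darkness, at 1.217, 2.976 and -3.846, and read 139.2, 118.9 and 145.7 in light (3.11 ± 0.27, adjusted p = 1.8e-06). Its size rests on the offset, with a range from 1.60 to 4.71. THI2.2, a thionin, one of the small antimicrobial proteins, behaved likewise, from -8.938, -16.63 and -8.029 to 140.1, 49.87 and 65.2 (2.56 ± 0.25, adjusted p = 7e-06, range 1.17 to 4.34). AT2G20560 (2.17) and AT4G35660 (1.64) also had a dark mean under the offset, with ranges of 0.96 to 3.64 and 0.80 to 2.31. AT3G21670, listed in RefSeq as NPF6.4 of the NRT1/PTR transporter family, rose from 33.79, 46.62 and 73.26 to 255.8, 325.6 and 315.2 (2.26 ± 0.25, adjusted p = 1.8e-05). The remaining increases were AT5G15950 (2.45), AT1G06000 (2.38), AT3G56290 (2.27), AT5G47610 (2.13), AT1G73480 (2.04), AT1G13930 (1.77), AT5G55620 (1.76) and AT1G14345 (1.74). All 20 stayed called in each fit without an array, with the 25S covariate and without scaling.

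The 20 largest decreases ran from -1.10 to -2.43 log2 (adjusted p between 4.6e-08 and 0.011). The leader was AT5G02580, which read 728.2, 578.3 and 622.4 in darkness and 92.29, 94.03 and 136.6 in light (-2.43 ± 0.20, adjusted p = 9.1e-07). AT4G16670 stood at 505.9, 517.9 and 505.9 in darkness and 134.6, 142.8 and 146.0 in light (-1.74 ± 0.11, adjusted p = 5e-08). In both the groups were far apart. AT4G36010 fell by 1.94 and AT4G35720 by 1.93 log2, and AT5G57760, AT1G77200, AT5G67390 and AT1G60060 by 1.76, 1.63, 1.48 and 1.32. The smaller decreases were AT2G36200 (-1.31), AT1G36060 (-1.31), AT3G15570 (-1.26), AT5G45210 (-1.25), P1R3 (-1.18), AT4G11610 (-1.18), AT1G71970 (-1.17), AT3G57800 (-1.14) and AT4G25250 (-1.10). The lit means of AT2G36200, AT3G15570 and AT5G45210 lay under the offset, so their sizes rest on it. AT1G77200 averaged 16.82 in light, close to the offset, and its change ran from -2.15 to -0.87 over the settings. AT3G15570 lost its call without WT_D1 replicate 2 (adjusted p = 0.054) or replicate 3 (0.05). With the 25S covariate AT3G15570, AT1G36060 and IQD26 were not called (adjusted p = 0.35, 0.056 and 0.055), and without scaling 12 of the 20 decreases were called.

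**Figure D4:**
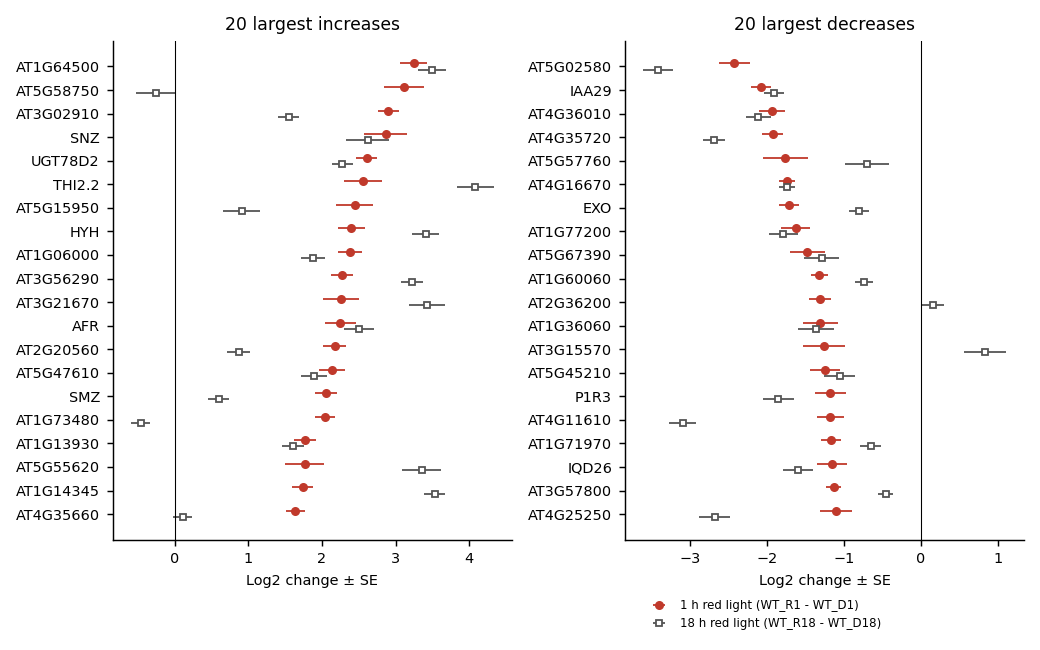
Log2 change ± SE for the 20 largest increases (left) and the 20 largest decreases (right) at 1 h, with circles for 1 h of red light (WT_R1 minus WT_D1) and open squares for 18 h (WT_R18 minus WT_D18), n = 3 arrays per group. In each panel 17 of 20 genes were called in the same direction at 18 h, and AT5G58750, AT1G73480 and AT3G15570 are among those that were not.

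Whether a change at 1 h lasted was asked of WT_R18 and WT_D18, arrays that share none with the comparison at 1 h. At 18 h 34.4% of probe sets were called, and 31.6% of named genes (12.4% higher, 19.2% lower). Of the 267 genes higher at 1 h, 183 were also higher at 18 h, 12 were lower and 72 were not called, and of the 260 lower at 1 h, 171 were also lower, 23 were higher and 66 were not called. The difference between the changes was called for 155 of the 267 and 97 of the 260, and for 16.6% of named genes. Of the 40 ranked genes 17 increases and 17 decreases were called in the same direction at 18 h, and the difference was called for 13 and 9. All these genes were selected by their change at 1 h, which is part of the difference. Their shares with a called difference are therefore not comparable with the 16.6% of all named genes.

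The genes fall into patterns that the test of the difference separates. GI, AT1G73480 and AT5G58750 were raised at 1 h and back at or under the dark level at 18 h. AT1G73480 averaged 170.8 ± 24.8 (SD, n = 3) in WT_D1 and 750.8 ± 83.8 in WT_R1, against 235.4 ± 17.2 in WT_D18 and 168.2 ± 33.1 in WT_R18, and its change was larger at 1 h by 2.50 ± 0.19 (adjusted p = 6.8e-07). GI averaged 1012 ± 93.1 in WT_R1 but 370.3 ± 40.3 in WT_R18, beside 452.4 ± 21.7 in WT_D18, a difference of 1.86 ± 0.15 (adjusted p = 8.5e-07). SMZ kept part of its increase, 0.60 log2 at 18 h, a difference of 1.46 ± 0.21 (adjusted p = 0.00015). For SNZ, UGT78D2, AFR and AT1G64500 the difference was not called, with 18 h changes of 2.63, 2.28, 2.50 and 3.497 log2 and differences of 0.24 ± 0.41, 0.33 ± 0.20, -0.25 ± 0.29 and -0.25 ± 0.27.

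Other genes went on in the same direction. HYH averaged 104.4 ± 16.5 in WT_R1 and 218.4 ± 21.3 in WT_R18, and its change was larger at 18 h by 1.01 ± 0.26 (adjusted p = 0.012). PSBY, PSBW, LHCB4.2 and LHCB4.3 were higher by 1.95, 1.32, 1.33 and 1.53 log2 at 18 h, in each case more than at 1 h (adjusted p of the difference 0.0013, 0.0022, 2.8e-05 and 0.00093). IAA20 averaged 144.7 ± 26.9 in WT_R1 and 4.469 ± 9.42 in WT_R18, a change of -3.54 log2 at 18 h and a difference of 2.61 ± 0.27 (adjusted p = 7.3e-06). The WT_R18 mean of IAA20 and the dark means of HYH and SNZ at both times lay under the offset, so the sizes of these changes at 18 h and of their differences from 1 h rest on it. GH3.3, HAT2, FHL and EXPA9 also fell further, by 2.15, 1.44, 1.71 and 2.03 log2 at 18 h. EXO went the other way: it averaged 1107 ± 99.7 in WT_R1 and 1595 ± 60.2 in WT_R18, and its decrease was larger at 1 h by 0.91 ± 0.19 (adjusted p = 0.0028). XTH16 changed direction, from -0.55 log2 at 1 h to 0.80 at 18 h (difference -1.35 ± 0.13, adjusted p = 4.7e-06). For IAA29, which fell by 2.09 log2 at 1 h and by 1.91 at 18 h, the difference was not called, at -0.17 ± 0.18 (adjusted p = 0.59).

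**Figure D5:**
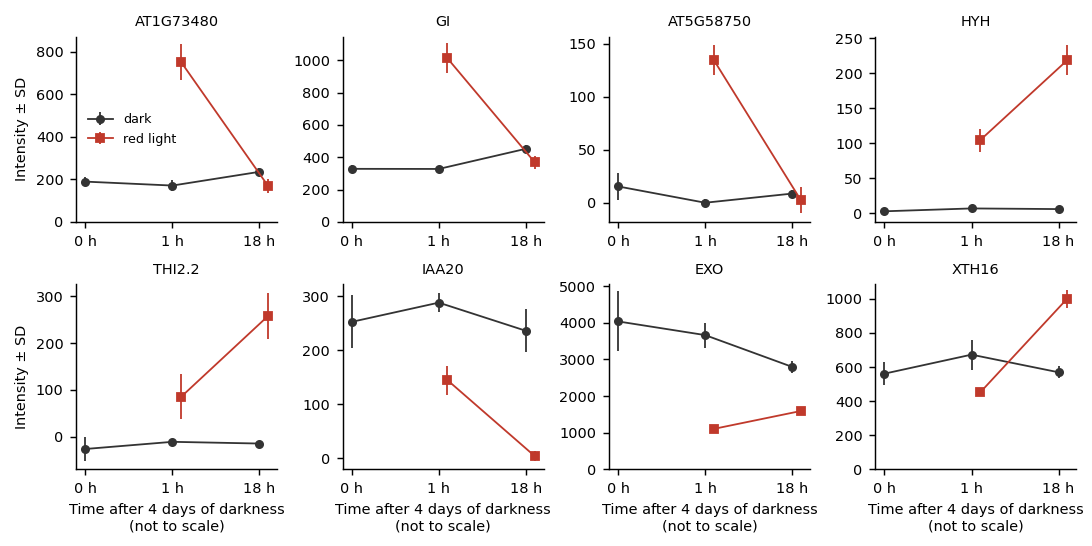
Mean intensity ± SD (n = 3 arrays) of 8 genes in the dark groups WT_D0, WT_D1 and WT_D18 (circles) and in the red light groups WT_R1 and WT_R18 (squares), with times not to scale. AT1G73480, GI and AT5G58750 are high in WT_R1 alone, HYH and THI2.2 are higher still in WT_R18, and XTH16 is below its dark control at 1 h and above it at 18 h.

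No probe set passed the test for the hour of darkness alone. WT_D1 against WT_D0 gave 0 called probe sets of 22746 (0.00%) by limma and 1692 at an unadjusted p under 0.05 (7.44%), with 0 to 2 called over the alternative settings. This comparison shares the WT_D1 arrays with the main one. None of the 40 ranked genes was called in it. Their log2 changes over that dark hour lay between -0.79 and 0.27 for the 20 increases and between -0.25 and 0.70 for the 20 decreases, with P1R3 the highest. In the pif3 mutant after the same hour of darkness, also set against WT_D1, 9 probe sets were called (0.0396%) and none of the 40 genes was among them. Their log2 changes in pif3_D1 lay between -0.27 and 0.60 for the increases and between -0.29 and 0.45 for the decreases. IAA29 changed by -0.06 log2 over the dark hour, EXO by -0.12, HYH by 0.27 and UGT78D2 by 0.06.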

How the data were processed

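Per the labels' protocols, total RNA of whole seedlings was column-purified and 5 ug was labelled with biotin and hybridised, 1 sample per array. The deposited values are linear intensities, 1 per probe set and array, of which 9.781% to 11.33% lay below 0 on the 6 arrays. Of the authors' summary software and scaling nothing is given in the sources used here. The deposited medians of the 6 arrays ran from 49.51 to 94.87, so quantile normalization was applied to the linear values of the 22746 non-control probe sets. Values below 0 were then set to 0, 16 was added and log2 was taken, and group means and SDs are of the normalized intensities before that floor. All 21 arrays entered 1 linear model with 7 group means (limma 3.58.1 under R 4.3.3), and tables and figures were made with Python 3.11.15. The model fit was tested on simulated data. P-values are two-sided and adjusted over all 22746 probe sets. No detection calls were used, and the number of arrays limits the precision.

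Genes were named through the platform annotation and RefSeq (TAIR10.1, names only): 13513 probe sets had 1 gene, 13436 of them matched by gene ID, 503 had several, and 8730 tested ones are unnamed here. For 14 of 152 genes measured by more than 1 probe set these differed in their call, and in none were the calls opposite. Named genes are the 20 largest increases and decreases each among called genes without overlap between the groups, up to 6 called members of each list or the member nearest the threshold, and the largest called change each way in each family. Others are said to be picked out after their values were seen. The members, lists and rules were chosen with earlier results of these data known. Of 22 lists 21 had measured members, and 6 entries whose symbol belongs to another gene were removed. Lists are described by counts and medians, without a test. No promoter or protein sequence was analysed here. The alternatives were another offset (4 or 64), no scaling, median scaling, quantile normalization of log2 values, a filter on dim probe sets (mean above 50), fits on fewer arrays, a replicate block, a pooled dark control, the 25S signal as a covariate, eBayes with trend and robust estimation, and leaving out each array.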

Additional observations from a re-analysis of the deposited data

Results flagged for a closer look

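For 41 of the 69 genes named by rule the change at 1 h differed from the change at 18 h by limma's test of the difference (adjusted p under 0.05, 3 arrays per group). The rules chose genes by the change at 1 h, which is part of the difference, so this share is not that of unselected genes. The values here are the log2 change at 1 h minus that at 18 h, so a positive value means a larger increase, or a smaller decrease, at 1 h.

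Among genes that were higher at 1 h, the increase was larger at 1 h for AT5G58750 (3.36), AT1G73480 (2.50), GI (1.86), AT5G15950 (1.54), AT4G35660 (1.53), SMZ (1.46), AT3G02910 (1.355), AT2G20560 (1.303) and bHLH34 (0.44). It was larger at 18 h for AT1G14345 (-1.79), AT5G55620 (-1.59), THI2.2 (-1.53), PSBY (-1.26), XTH32 (-1.26), AT3G21670 (-1.16), HYH (-1.01), LHCB4.3 (-1.01), AT3G56290 (-0.95), LHCB4.2 (-0.92) and PSBW (-0.83). Of the genes with the larger increase at 1 h, GI and AT1G73480 were called lower than the dark control at 18 h, and AT5G58750 and AT4G35660 were not called there.

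Among genes that were lower at 1 h, the decrease was larger at 18 h for IAA20 (2.61), AT4G11610 (1.92), AT4G25250 (1.58), EXPA9 (1.18), GH3.3 (1.15), AT5G02580 (0.99), FHL (0.87), HAT2 (0.77) and AT4G35720 (0.76). It was larger at 1 h for EXO (-0.91), EXPB1 (-0.70), AT3G57800 (-0.68) and AT1G60060 (-0.58). AT3G15570 (-2.09) and XTH16 (-1.35) were higher than the dark control at 18 h, and AT2G36200 (-1.47) and EXPB1 were not called there.

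Of genes not called at 1 h the difference was called for LIL3:1 (-1.55), HPR (-1.28), LYC (-0.64), EIN3 (0.56) and HEMA2 (0.47).

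For AT5G58750, THI2.2, HYH, AT2G20560, AT4G35660, IAA20, AT4G25250, AT2G36200 and AT3G15570 at least 1 of the 4 group means behind the difference lay under the offset, so its size rests on it.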

How the results depend on the processing

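The 20 largest increases stayed called under the 6 fits that left out an array, the 25S covariate, no scaling, the 6 arrays alone and the pooled dark control. The total of 1126 called probe sets fell to 165 without scaling (132 higher, 33 lower), to 726 with the 6 arrays alone (282 lower) and to 597 with the 25S covariate (360 higher, 237 lower), and against the pooled dark control it rose to 1644 (825 higher, 819 lower). Leaving out an array gave 864 to 1005 calls. Of 17 called list members 5 stayed called without scaling (HYH, GI, UGT78D2, IAA29 and EXO) and 11 with the 25S covariate. The difference from 18 h was called for 22 of the 40 ranked genes, for 9 without scaling and for 13 with the 25S covariate. Leaving out an array moved LIL3:1, which was not called, from -0.0327 (a reversal, without WT_R1 replicate 1) to 0.2963 (without WT_D1 replicate 3), and it was 0.3371 against the pooled dark control. The cause was not tested. Deviations of same-numbered arrays correlated at -0.101, 0.0975 and -0.0692, and those of arrays with different numbers at -0.144 to 0.221. Deviations from means of 3 arrays cannot show whether replicate numbers pair the samples, and the labels do not say. A replicate block gave 1125 calls over all arrays and 25 over the 6 arrays alone (21 higher, 4 lower, with 2 list members called), where few degrees of freedom are left. Signals near background limit the size of changes in 27 higher and 17 lower genes, which had a group mean under the offset.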

Other observations

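Of the named genes called at 1 h, 83 have a symbol, and those not described above were picked out after their values were seen. XERICO, a RING-finger gene whose overproduction raises abscisic acid, fell by 0.47 ± 0.10 log2 (adjusted p = 0.0077) and was 0.95 log2 lower at 18 h. EEL, a bZIP factor of late seed development, fell by 0.68 ± 0.11 (adjusted p = 0.0011, and 0.10 with the 25S covariate). MGL, a methionine-degrading enzyme, read 2544, 2583 and 2239 in darkness and 1368, 2036 and 1589 in light, and fell by 0.57 ± 0.13 (adjusted p = 0.015, 0.30 with the 25S covariate, and up to 0.08 without WT_R1 replicate 1 or 3 or WT_D1 replicate 1 or 2). GH9C3, of the endoglucanase family, fell by 0.99 ± 0.21 (adjusted p = 0.0088, and up to 0.055 without WT_R1 replicate 2 or WT_D1 replicate 1). Its mean in light, 13.35, lay under the offset, so the size rests on it, with a range from -1.45 to -0.45 over the settings. GLR3.3, a glutamate receptor-like channel, rose by 0.50 ± 0.08 (adjusted p = 0.00065), from 53.37 to 55.18 in darkness to 77.19 to 92.2 in light.

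Further values concern WT_R1 replicate 2 and the unnamed probe sets. On that array YLS5 read 1324 against 108.7 and 198.9 on the other WT_R1 arrays, the ubiquitin ligase gene PUB23 read 482.3 against 82.96 and 78.89, and the peroxidase gene Prx37 read 251.0 against 17.44 and 23.8, with none of these called (adjusted p = 0.48, 0.26 and 0.51). Of the 9233 probe sets with no single annotated gene 594 were called at 1 h (6.43%), beside 3.95% of the named genes.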
